A study of Mus musculus with 4 samples.

Results

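The POU class III factors are 4 transcription factors of the developing nervous system, Pou3f1 (also called Oct6 or SCIP), Pou3f2 (Brn2), Pou3f3 (Brn1) and Pou3f4 (Brn4). They were taken by name, as the 4 of the 45706 genes of the deposited count table whose Ensembl identifiers belong to these symbols in GENCODE release M21 (GRCm38). The libraries, 4 replicates of a single group, hold RNA of basal radial glia from the medial neocortex of the mouse at E18.5, late in embryonic neurogenesis. All 4 carry the same labels, namely strain C57BL/6JOlaHsd, genotype Tubb-GFP/+ and, in their titles, DiI, a lipophilic membrane dye. There is no second condition, so the comparisons are between genes within these libraries. Whether the replicates are separate animals or pools of animals is not stated in the labels. Each p-value rests on the spread between these samples alone, in part pooled over genes, and that spread may be technical.

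POU factors bind DNA through a POU-specific domain and a POU homeodomain joined by a linker, and many recognise the octamer motif. Class III members are encoded by genes without introns in the mouse and are known mainly from neural progenitors, neurons and glia. In the neocortex Brn1 and Brn2 act in progenitors of upper-layer neurons and in the migration of those neurons, and the loss of both is more severe than the loss of either alone.

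All 4 genes were present, at very different levels. Pou3f2 led with 415 ± 53.0 TPM (SD, n = 4), followed by Pou3f3 with 177 ± 17.5 TPM, Pou3f1 with 31.1 ± 4.58 TPM and Pou3f4 with 7.16 ± 0.919 TPM. TPM, a length-corrected relative abundance with the same total in every library, was computed here from the deposited counts and the merged exon length of each gene, and it is the scale of all levels below unless the deposited TPM or CPM is named. By these GENCODE lengths no library of one gene reached the range of the next gene in this order. With the lengths of a second annotation, RefSeq, the spreads of Pou3f2 (369.8 ± 47.2 TPM) and Pou3f3 (295.1 ± 29.2 TPM) overlapped. In bulk RNA, fewer cells with a transcript and less of it per cell cannot be told apart.

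**Figure D1:**
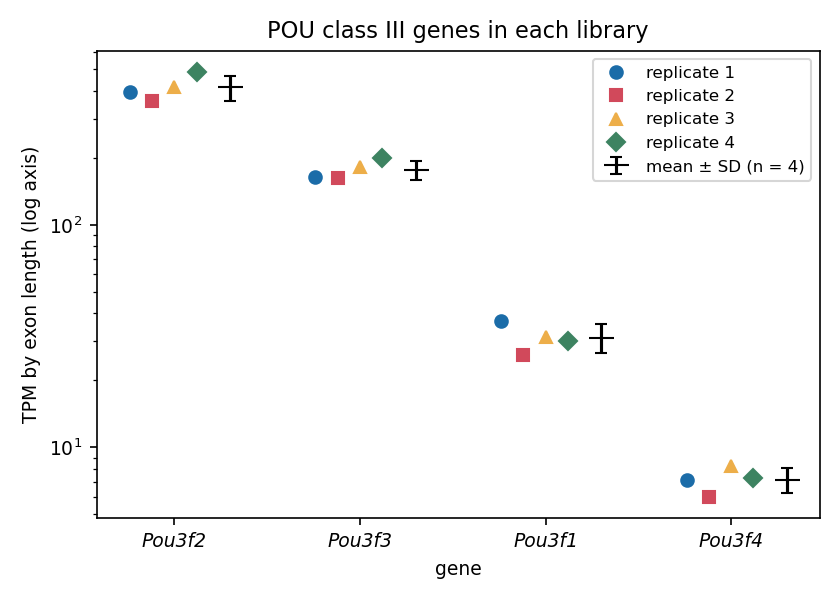
Level of each POU class III gene in each of the 4 libraries (TPM by exon length, log axis; symbols are libraries, bars are mean ± SD, n = 4). By GENCODE exon length the 4 genes occupy 4 separate ranges, from 361 to 487 TPM for Pou3f2 down to 6.01 to 8.25 TPM for Pou3f4. With RefSeq lengths the spreads (mean ± SD) of Pou3f2 and Pou3f3 overlap.

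The libraries held between 26540656 and 34837657 counts, with a count for 23128 to 23900 genes. Pairs of libraries that included replicate 4 differed more (chi-square per degree of freedom 20.1 to 26.4) than the other pairs (9.84 to 13.9), so values without replicate 4 are given where a result could rest on it. The labelled cell type was checked against its markers: all 8 radial glia markers and 6 of 7 basal radial glia markers lay above 1 TPM by edgeR's quasi-likelihood test, the exception being Fam107a at 0.568 ± 0.303 TPM. As 75.7% of all protein-coding genes tested were also above 1 TPM, these counts show that the markers were present and do not by themselves identify the cells. Markers of other cells were present too, with 5 of 5 above 1 TPM for excitatory neurons (summed level 9210 to 10307 TPM per library), 5 of 5 for intermediate progenitors (1024 to 1135 TPM), 4 of 4 for erythroid cells (1848 to 3378 TPM), 5 of 5 for astrocytes (591 to 722 TPM), 5 of 5 for oligodendrocyte precursors (43.6 to 51.7 TPM), 5 of 5 for microglia (16.5 to 35.5 TPM) and 4 of 5 for interneurons (12.1 to 16.3 TPM), against 4737 to 5727 TPM for radial glia. The radial glia sum was mostly Fabp7 (4631 TPM). List medians were 31.5 TPM for radial glia, 64.9 for basal radial glia, 119 for intermediate progenitors and 662 for excitatory neurons. They were 560 TPM for erythroid cells, 16.1 for astrocytes and 7.20 or lower for oligodendrocyte precursors, microglia and interneurons. None of the 4 endothelial markers, 1 of 4 for meninges, 1 of 3 for choroid plexus and 2 of 4 for Cajal-Retzius cells were above 1 TPM, and no marker of any list was at 0 in all libraries. Both progenitors and young neurons are known to express class III factors, and which cells held the members' transcripts here was not tested.

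Each of the 4 genes is a single exon with 1 annotated transcript. Pou3f2 (ENSMUSG00000095139) lies at chr4:22482780-22488366 on the minus strand, and its 5587 bases hold a coding part of 1335 bases with a 3′ untranslated region of 4017 bases, stop codon included. Pou3f3 (ENSMUSG00000045515) lies at chr1:42695768-42703176 on the plus strand, with 7409 bases, of which 1491 are coding and 4540 belong to the 3′ untranslated region. Pou3f1 (ENSMUSG00000090125) lies at chr4:124656807-124660655 on the plus strand, with 3849 bases, of which 1347 are coding. Pou3f4 (ENSMUSG00000056854) lies at chrX:110814280-110817207 on the plus strand, with 2928 bases, of which 1083 are coding. Genes of this form are a minority, since 1487 of the 22028 annotated protein-coding genes (6.75%) consist of 1 exon block.

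Paralogs can exchange reads where their sequences are identical. The longest run of identical bases between any pair of whole transcripts was 38 bases, between Pou3f1 and Pou3f2 in the part that encodes the POU-specific domain, and none of the 6 pairs shared a window of 50 bases. The stretch of 60 coding bases that contains that run is shown for the 4 genes, from the GENCODE M21 transcripts (GRCm38), because it holds the longest identity found. Capitals mark bases that differ from Pou3f2.
Pou3f2, chr4:22487133-22487192, minus strand: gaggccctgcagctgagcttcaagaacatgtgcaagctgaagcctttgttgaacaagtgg
Pou3f1, chr4:124658589-124658648, plus strand: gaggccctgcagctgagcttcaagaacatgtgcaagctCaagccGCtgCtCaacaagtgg
Pou3f3, chr1:42698226-42698285, plus strand: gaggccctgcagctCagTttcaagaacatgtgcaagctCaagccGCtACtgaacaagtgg
Pou3f4, chrX:110815170-110815229, plus strand: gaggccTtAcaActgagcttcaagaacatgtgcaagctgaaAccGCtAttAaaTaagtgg
In this stretch Pou3f1 differed from Pou3f2 at 5 bases, Pou3f3 at 7 and Pou3f4 at 9, and a core of 20 bases was the same in all 4. Over the whole aligned coding parts the identity of the 6 pairs ran from 68.8% (Pou3f1 and Pou3f4) to 73.8% (Pou3f3 and Pou3f4). The sources used here do not give how reads that fit several places were treated. The coding parts encode 449 (Pou3f1), 445 (Pou3f2), 497 (Pou3f3) and 361 (Pou3f4) codons, with a GC content of 72.8%, 65.8%, 71.0% and 57.0%.

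Pou3f2 was the most abundant POU gene of these libraries. It is the class III factor used in turning fibroblasts into neurons, and in the cortex it acts in late progenitors and upper-layer neurons. Its deposited counts were 19722, 22735, 22438 and 22404 in replicates 1 to 4, which corresponds to 394, 361, 418 and 487 TPM. Replicate 4 was the highest and replicate 2 the lowest, and by GENCODE exon length the whole range spanned less than the distance to any other member. Its level lay 8.70 ± 0.062 (SE) above 1 TPM on the log2 scale (edgeR adjusted p = 4.97e-20) and 8.61 above it without replicate 4. All 4 members were called above 1 TPM, as were 65.9% of the 20991 genes tested and 75.7% of the 15401 protein-coding ones (12.1% of all tested were below it), so that call alone does not set the members apart. Among protein-coding genes Pou3f2 ranked 354 of 15401 by mean TPM, and it ranked 15 among the 519 that have a single exon block.

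Pou3f3, the closest partner of Pou3f2 in cortical progenitors and also a factor of the developing kidney, was second. Its counts were 10862, 13535, 12987 and 12169, or 164, 162, 182 and 199 TPM. As for Pou3f2, replicate 4 was the highest and replicate 2 the lowest, though replicates 1 and 2 nearly coincided. The log2 level above 1 TPM was 7.47 ± 0.054 (SE, edgeR adjusted p = 3.18e-19), and 7.41 without replicate 4. Pou3f3 ranked 900 among protein-coding genes, with 5.84% of them higher.

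Pou3f1, best known for its role at the promyelinating stage of Schwann cells and also expressed in cortical neurons, came next. Counts of 1277, 1125, 1159 and 956 gave 37.1, 26.0, 31.3 and 30.1 TPM. Here replicate 1 was the highest and replicate 2 again the lowest. The log2 level above 1 TPM was 4.96 ± 0.087 (SE, edgeR adjusted p = 2.27e-14), and the gene ranked 4062 among protein-coding genes. Its value carries an uncertainty that the other members do not have, because the antisense gene Gm2164 covers 330 of its 3849 exonic bases (8.57%) and the protocol described in the labels does not mark strand.

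Pou3f4, the X-linked member known from the inner ear and the ventral forebrain, was the lowest. It had 186, 198, 232 and 176 counts, or 7.10, 6.01, 8.25 and 7.30 TPM. The libraries' exact Poisson 95% intervals, which cover counting error only, together spanned 5.20 to 9.38 TPM. Counting error is thus a larger part of its spread than for the other members. The log2 level above 1 TPM was 2.84 ± 0.12 (SE, edgeR adjusted p = 4.37e-10). With a rank of 8340, Pou3f4 had 54.1% of the protein-coding genes tested above it.

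Differences between the members were then tested within libraries. For every gene, log2(TPM + 1) minus that of a reference member was tested against 0 with limma's one-sample test, and p-values were adjusted over all 20990 other genes. Tests against one reference share that gene's own deviations, and their calls are not independent. In the fit against Pou3f1 the spread of each gene was replaced by a trend over all genes. Its p-values therefore do not measure a gene's own spread over the 4 libraries and can be very small. The adjacent pairs in the order all differed, in 4 of 4 libraries each. Pou3f2 exceeded Pou3f3 by 1.22 on this log2 scale (SD 0.062, n = 4; limma adjusted p = 1.01e-08), a TPM ratio of 2.41, 2.23, 2.29 and 2.44 in replicates 1 to 4. This ratio was the steadiest of the 6 pairs, at 2.34 ± 0.0999. Pou3f3 exceeded Pou3f1 by 2.48 (SD 0.25; limma adjusted p = 1.40e-09), with ratios of 4.42, 6.25, 5.82 and 6.61. The lowest of these belongs to replicate 1, where Pou3f1 was at its highest. Pou3f1 exceeded Pou3f4 by 1.97 (SD 0.18; limma adjusted p = 2.06e-30, and 5.74e-04 with no sharing of the spread between genes), with ratios of 5.22, 4.32, 3.80 and 4.13. Across the whole class, Pou3f2 was 58.3 ± 6.82 times Pou3f4. Without replicate 4 the 3 adjacent differences were 1.202, 2.41 and 1.99.

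Set against all genes, the upper members were rare in their height. By limma's test 313 genes were above Pou3f2 (1.49% of those tested) and 20534 below it (97.8%), with 143 not called (0.681%). Against Pou3f3, 827 genes were above (3.94%) and 19917 below (94.9%). Pou3f1 had 3747 genes above it (17.9%) and 16124 below it (76.8%), with 1119 not called (5.33%).

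As shares of their own sum, the 4 members split unevenly, in the same order in each library. Pou3f2 held 65.8 ± 1.01% (SD, n = 4), with 65.5%, 65.0%, 65.3% and 67.3% in replicates 1 to 4. Pou3f3 held 28.1 ± 0.912% and Pou3f4 1.14 ± 0.122%. Pou3f1 held 4.97 ± 0.845%, with 6.15%, 4.67%, 4.90% and 4.17%, the highest share falling in replicate 1. The sum itself was 602, 556, 640 and 724 TPM, lowest in replicate 2 and highest in replicate 4. Relative to their size, the shares of Pou3f2 and Pou3f3 varied less between libraries than the sum did, while that of Pou3f1 varied more. As Pou3f2 makes up most of the sum, its share is held steady in part by construction.

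The class also dominated the POU family as a whole. Over all 15 POU genes the 4 members held 89.0 ± 0.938% of the summed TPM (88.6%, 88.3%, 88.7% and 90.3%), and Pou3f2 alone 58.5 ± 1.52%. Of the 11 other POU genes 9 could be tested. Above 1 TPM lay 6 of them, beside 65.9% of all genes tested and 75.7% of protein-coding ones. The highest was Pou6f1, a class VI factor widely expressed in brain, at 39.8 ± 1.67 TPM, with 38.3 TPM or more in each library, and exceeded Pou3f1 by 0.35 (limma adjusted p = 0.00934) in 4 of 4 libraries. Replicate 1 was the narrowest case, since Pou3f1 reached 37.1 TPM there. With its RefSeq length Pou3f1 was at 39.8 ± 5.86 TPM, so the order of these genes depends on the length taken. Pou2f1, the ubiquitous Oct1, was at 14.1 ± 0.663 TPM, with 18.1% of its exonic bases shared with Cd247 on the opposite strand, and Pou4f1, the sensory neuron factor Brn3a, was at 9.25 ± 0.397 TPM. Both were below Pou3f1 and, by their means by exon length, above Pou3f4, but in the deposited TPM they were at 5.97 and 23.998, the first below Pou3f4 at 25.2 ± 3.24 (SD, n = 4) and the second within its spread. Pou2f3 and Pou4f2, at 0.182 and 0.895 TPM, were called neither above nor below 1 TPM. The pituitary factor gene Pou1f1 and the pluripotency gene Pou5f1, at 0.0406 and 0.0678 TPM, had too few counts to test. None of the 9 was above Pou3f2 or Pou3f3, while 1.49% and 3.94% of all genes tested were. Over all 11 the median was 3.01 TPM, beside 4.79 TPM for all genes tested and 8.997 TPM for protein-coding genes.

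**Figure D2:**
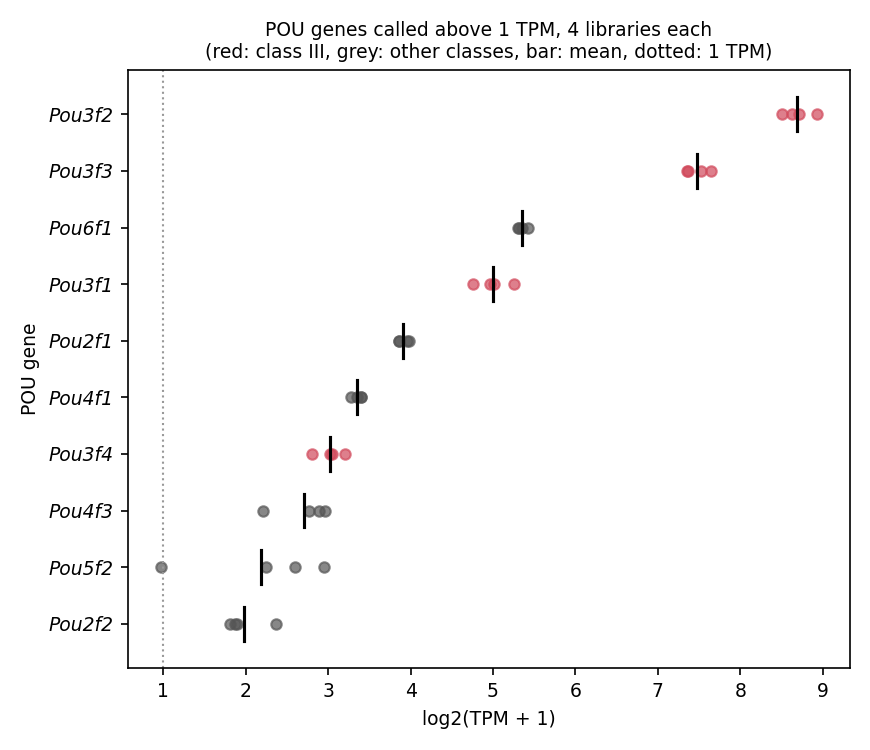
Level of the 4 class III genes and the 6 other POU genes called above 1 TPM on the log2(TPM + 1) scale, each point 1 of 4 libraries and each bar the mean (red, class III; grey, other classes; dotted line, 1 TPM). Pou3f2 and Pou3f3 stand to the right of the other POU genes shown. By exon length, though not in the deposited TPM, Pou6f1 lies just above Pou3f1 and Pou4f1 just above Pou3f4. The order of Pou6f1 and Pou3f1 also depends on the annotated length of Pou3f1.

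Between libraries the members moved partly together. Relative to each gene's own mean log2(TPM + 1), Pou3f2 stood at -0.065, -0.19, 0.018 and 0.24 in replicates 1 to 4, and Pou3f3 at -0.11, -0.12, 0.049 and 0.18. Both were thus highest in replicate 4. Pou3f1 stood at 0.26, -0.24, 0.020 and -0.034, and Pou3f4 at -0.0043, -0.21, 0.19 and 0.030. All 4 members were lowest in replicate 2, which is also where all 4 erythroid markers were highest. The part of those transcripts in the members' values was not tested.

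None of the members was called more variable between libraries than genes of like abundance. In this edgeR test 0 of 16706 genes (0%) were called, and 800 (4.79%) had an unadjusted p under 0.05. Even Sox11, at 12.4 times the trend (unadjusted p = 0.00234), was not called (edgeR adjusted p = 0.756). The lack of a call therefore does not show that a member's spread was ordinary. The residual dispersion of Pou3f2 was 3.13 times the trend (unadjusted p = 0.0883, edgeR adjusted p = 0.973), that of Pou3f1 was 1.71 times and that of Pou3f3 1.62 times (edgeR adjusted p = 0.973 for each), while Pou3f4 was at 0.363 times the trend. These ratios depended on single libraries: on the log2 scale, the Pou3f1 value of 0.78 became -1.14 without replicate 1, and the Pou3f2 value of 1.65 became 0.64 without replicate 4. The coefficients of variation were 14.7% for Pou3f1, 12.8% for Pou3f2, 9.89% for Pou3f3 and 12.8% for Pou3f4, against 2.98%, 0.677%, 0.898% and 7.11% expected from counting alone.

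The values of the members depended on how gene length is counted. The authors' deposited TPM table divides by the whole gene span, introns included, which for the members equals the exon length. For this comparison TPM by exon length was rescaled over the genes of the deposited table, with Pou3f2 then at 524 TPM. Against these rescaled values the members stood 2.78 times higher in the deposited TPM (1.48 on the log2 scale for each). The median over 14794 genes in both tables was -1.03. The median over the 492 single-exon genes was 1.48 as well. In the deposited TPM Pou3f2 was at 1458, Pou3f3 at 622, Pou3f1 at 109 and Pou3f4 at 25.2. Their ranks there were 87, 218, 1231 and 3511 of 15646 genes, against 293, 781, 3716 and 7675 for the same genes by exon length. The number of genes above Pou3f2 was 68 on the deposited scale and 114 by CPM, the count scaled to the library total with no length correction, and that above Pou3f1 was 1016 on the deposited scale. The deposited table changes the genes along with the length, since it holds fewer genes and gives no value for some of those above Pou3f2 by exon length, such as Tubb3 and Pantr1.

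The annotated ends of the transcripts also matter. RefSeq (GRCm38.p6) gives 6272 bases for Pou3f2 and 4443 for Pou3f3, where GENCODE gives 5587 and 7409. With the RefSeq lengths Pou3f2 was at 369.8 ± 47.2 TPM and Pou3f3 at 295.1 ± 29.2 TPM (SD, n = 4). The difference between them then shrank from 1.22 to 0.32 (limma adjusted p = 0.00432), still with Pou3f2 the higher. For the other members RefSeq lengths of 3010 (Pou3f1) and 4730 (Pou3f4) gave 39.8 ± 5.86 and 4.43 ± 0.569 TPM, so the order of the 4 was kept. By counts alone, Pou3f2 had 1.77 times as many as Pou3f3.

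**Figure D3:**
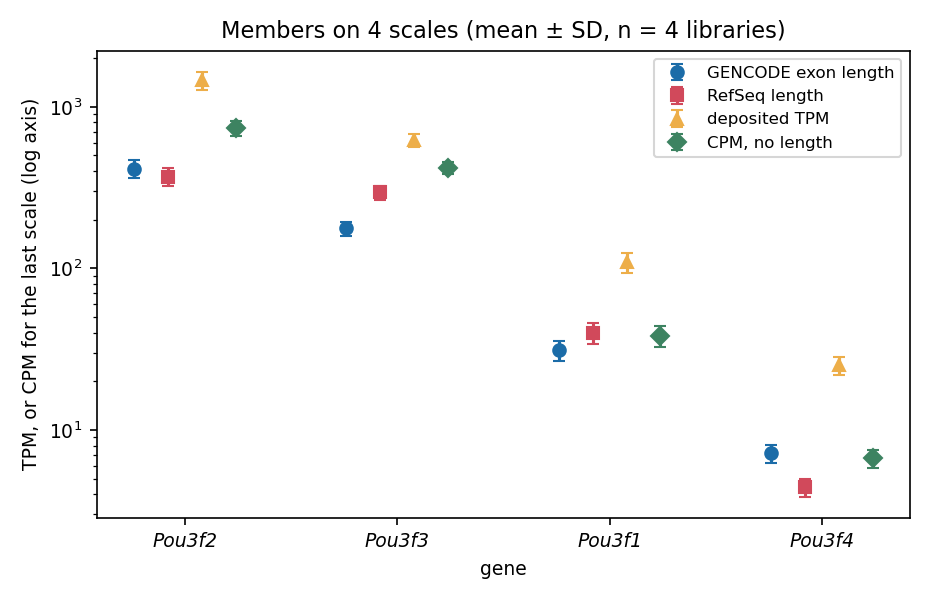
The 4 genes on 4 scales (mean ± SD, n = 4 libraries; log axis): TPM by GENCODE exon length, TPM by RefSeq length, the deposited TPM and CPM. The order of the genes is the same on each scale, and the gap between Pou3f2 and Pou3f3 is smallest with RefSeq lengths (369.8 and 295.1 TPM).

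Several class III genes have long noncoding neighbours, and that of Pou3f3 was the most abundant transcript near any member. Pantr1 (chr1:42590782-42694842, minus strand) is a lincRNA transcribed away from Pou3f3, with a start 926 bases from that of Pou3f3 and no exon in common. Its counts were 32946, 42182, 36493 and 34850, or 826, 841, 852 and 949 TPM. Like Pou3f3 it was highest in replicate 4, but it was not lowest in replicate 2. Pou3f3 lay below Pantr1 by 2.29 on the log2 scale (SD 0.069, n = 4; limma adjusted p = 4.16e-10), and below by 2.30 without replicate 4. The TPM ratio of Pou3f3 to Pantr1 was 0.198, 0.193, 0.214 and 0.210, a mean of 0.204 ± 0.00985. Pantr1 has no value in the deposited TPM table.

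The other transcripts around Pou3f3 were lower. Pantr2, on the minus strand beyond the 3′ end of Pou3f3, was at 22.2 ± 2.34 TPM, and Pou3f3 exceeded it by 2.94 (SD 0.12; limma adjusted p = 8.55e-11). AC122898.1 spans Pou3f3 on the same strand without sharing an exon and was at 6.11 ± 0.660 TPM. The noncoding genes 4930420N18Rik and Dalir were at 1.17 ± 0.896 and 0.254 ± 0.295 TPM, and neither was called above or below 1 TPM.

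**Figure D4:**
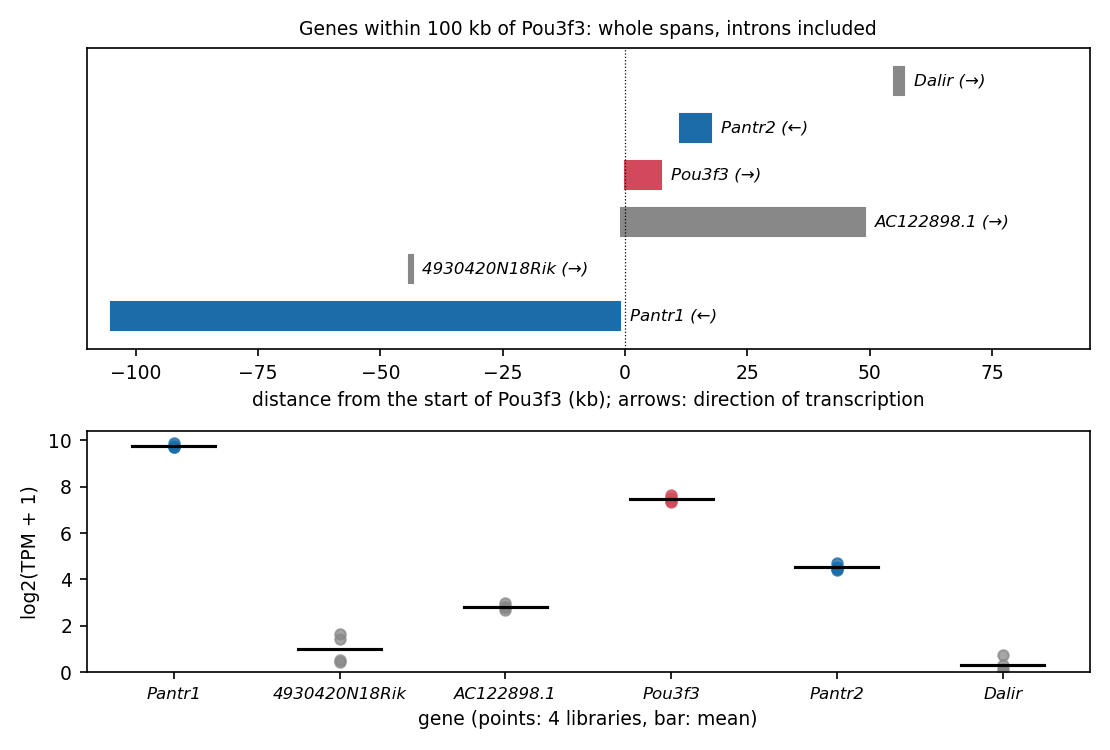
Top, annotated genes within 100 kb of Pou3f3, drawn by distance from its start with arrows for the direction of transcription; bottom, their levels as log2(TPM + 1), with 4 libraries as points and the mean as a bar. Pantr1, which starts 926 bases from Pou3f3, is the highest at 867 TPM, above Pou3f3 at 177 TPM.

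Near Pou3f1, the antisense gene Gm2164 had 10, 8, 9 and 11 counts (2.42 ± 0.626 TPM), and Pou3f1 exceeded it by 3.24 (limma adjusted p = 8.01e-63, SD 0.22). Of the 424 exonic bases of Gm2164, 330 lie in the shared part, where a protocol that does not mark strand cannot tell these genes apart. The difference between them is uncertain for that reason. The protein-coding neighbours Sf3a3, a splicing factor subunit, and Utp11 were at 163 ± 6.38 and 60.1 ± 1.87 TPM, and both exceeded Pou3f1 in 4 of 4 libraries, by 2.36 and 0.94. Inpp5b was at 20.1 ± 2.62 TPM, and the other tested genes within 100 kb (3100002H09Rik, Fhl3, the pseudogene Gm12917, Mir697 and 4933407E24Rik) were at 7.43 TPM or lower. Around Pou3f2 the nearest gene with at least 10 counts was Fbxl4, at 29.2 ± 1.44 TPM, followed by Gm37900 at 2.44 ± 1.03 TPM. No other gene of the count table lay within 100 kb of Pou3f4. The lincRNA genes Gm30731, which starts 2182 bases from Pou3f2, and Gm44593, 1956 bases from Pou3f4, were not analysed here.

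The sequence before the start sites of the 2 abundant members is shown, since that of Pou3f3 lies in the interval between the divergent starts of Pou3f3 and Pantr1. Both are 250 bases up to the annotated start, from RefSeq (GRCm38.p6), with the motif CCAAT on either strand in capitals.
Pou3f3, chr1:42695518-42695767, plus strand: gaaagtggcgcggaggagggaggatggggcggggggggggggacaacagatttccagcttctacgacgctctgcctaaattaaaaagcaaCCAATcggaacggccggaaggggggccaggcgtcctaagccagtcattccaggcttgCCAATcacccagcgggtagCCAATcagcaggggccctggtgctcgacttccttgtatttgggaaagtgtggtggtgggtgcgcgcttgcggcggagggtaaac
Pou3f2, chr4:22488367-22488616, minus strand: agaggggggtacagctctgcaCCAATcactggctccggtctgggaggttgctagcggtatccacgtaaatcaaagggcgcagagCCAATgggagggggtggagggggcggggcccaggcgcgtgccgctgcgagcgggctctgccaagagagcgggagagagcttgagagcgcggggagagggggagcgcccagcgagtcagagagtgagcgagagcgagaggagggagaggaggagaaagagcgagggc
Pou3f3 had 3 matches, whose first bases lay 160, 103 and 84 bases before the start, and Pou3f2 had 2, at 229 and 166. The corresponding window of Pou3f4 also had 3, at 179, 76 and 35 bases before its RefSeq start, and no entry was found for Pou3f1. Of the Pou3f4 window 99 bases lie within its GENCODE exon, so only 1 of its 3 matches lies before the GENCODE start. Of 32851 RefSeq promoters, 33.8% had at least 1 match in a window of this length, 10.1% at least 2 and 2.79% at least 3. The octamer ATGCAAAT, searched on both strands, had no match in the 3 windows and at least 1 in 1.60% of all promoters, and TATAAA had none against 12.4%. GGGCGG, a GC box, was found once each before Pou3f2 and Pou3f3, as in 32.7% of promoters with at least 1. The GC content was 66.8% for Pou3f2, 60.8% for Pou3f3 and 58.0% for Pou3f4, beside a median of 52.4% over all promoters. These letter matches are a description of the windows.

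The genes with which class III factors are known to act were then read against the members. Their counts stand beside the background already given: 65.9% of all genes tested and 75.7% of the protein-coding ones were above 1 TPM. Of all genes 97.8% were below Pou3f2, 94.9% below Pou3f3 and 76.8% below Pou3f1, with 17.9% above Pou3f1. Having all members above 1 TPM or below any of these factors thus does not set a list apart. SOX factors bind next to POU factors on enhancers of neural genes such as Nes. Each of the 9 SOX genes listed passed the test above 1 TPM, and their median was 30.1 TPM. Sox11, a SoxC factor of young neurons, was at 7622, 7628, 7507 and 10373 TPM, the highest value again in replicate 4, and exceeded Pou3f2 by 4.31 (limma adjusted p = 3.88e-11). The other 8 were below both Pou3f2 and Pou3f3, among them the glial factor Sox9 at 131 ± 19.8 TPM and Sox4 at 47.2 ± 3.31 TPM. Sox4 shares 54.6% of its exonic bases with Gm26735 on the opposite strand, which leaves its value uncertain. Of the factors used with Pou3f2 to make neurons from fibroblasts, Neurod1 was at 256 ± 14.7 TPM and Myt1l at 74.5 ± 2.63 TPM, both above 1 TPM and both below Pou3f2. Neurod1 stood between Pou3f2 and Pou3f3 by GENCODE exon length, 0.53 above Pou3f3 (limma adjusted p = 4.12e-05). In the deposited TPM Neurod1 was at 580 against 622 for Pou3f3. With the RefSeq length, Pou3f3 was higher than Neurod1 as well, at 295.1 TPM.

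Genes tied to class III factors in cortical progenitors were all above 1 TPM (7 of 7), with a median of 19.1 TPM. Fabp7, the brain lipid-binding protein of radial glia with POU sites in its enhancer, was at 4631 ± 382 TPM and exceeded Pou3f2 by 3.48 (limma adjusted p = 1.02e-10). Btg2, an antiproliferative gene of neurogenic progenitors, was at 425 ± 21.8 TPM. Its difference from Pou3f2 was 0.040 ± 0.10 (SE), higher in 2 of 4 libraries, which was not a detectable difference (limma adjusted p = 0.705). In the deposited TPM Btg2 was lower, at 1036 against 1458 for Pou3f2. The other 5, led by the netrin receptor gene Unc5d at 43.4 ± 6.14 TPM, were below Pou3f2 and Pou3f3.

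The Reelin and Cdk5 pathways drive the migration of upper-layer neurons, which depends on Pou3f2 and Pou3f3. Each of the 6 genes listed for them passed the test above 1 TPM, and their median was 57.5 TPM. Cdk5 was at 140 ± 8.09 TPM, the adaptor gene Dab1 at 82.7 ± 3.93, the Cdk5 activator gene Cdk5r1 at 79.8 ± 8.42, the Reelin receptor genes Lrp8 and Vldlr at 35.3 ± 2.39 and 6.08 ± 0.359, and Cdk5r2 at 2.12 ± 0.790 TPM. All 6 were below Pou3f2 and Pou3f3. Against Pou3f1 3 were above (17.9% of all genes were), 2 below (76.8% of all genes) and Lrp8 neither.

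Neuron genes of the upper and deep layers were read in the same way. Of 9 upper-layer genes 8 were above 1 TPM and Rasgrf2 was below it (0.488 ± 0.120 TPM), with a median of 51.6 TPM. Lhx2, a LIM homeodomain factor, was the highest at 107 ± 4.30 TPM, and Mef2c was at 64.0 ± 6.76 TPM. All 9 were below Pou3f2 and Pou3f3, as were 97.8% and 94.9% of all genes. Of the 9, 5 were above Pou3f1, as were 17.9% of all genes. Of 8 deep-layer genes 7 were above 1 TPM and Zfpm2 was neither (1.202 ± 0.291 TPM), with a median of 10.6 TPM. Fezf2, a determinant of subcerebral neurons, was the highest at 26.2 ± 2.15 TPM, followed by Tle4 at 14.7 ± 1.66 and Sox5 at 14.1 ± 0.797. All 8 were below Pou3f2 and Pou3f3. Against Pou3f1, 7 were below, as were 76.8% of all genes, and Fezf2 was not called (-0.24 ± 0.14, SE, limma adjusted p = 0.0978).

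Targets of class III factors outside the cortex were chosen from Schwann cells, pigment cells and the hypothalamus. Of 5 genes 4 could be tested, and 2 were above and 2 below 1 TPM. Egr2, the myelination factor that follows Pou3f1 in Schwann cells and is also an immediate early gene, was at 22.0, 27.5, 21.0 and 21.3 TPM, and the myelin gene Mbp was at 6.30 ± 1.39 TPM. Mitf and Crh were at 0.610 ± 0.110 and 0.271 ± 0.112 TPM. All 4 tested genes were called below Pou3f1, as were 76.8% of all genes. For Egr2 the difference was -0.42 (limma adjusted p = 0.00343), and Egr2 was higher than Pou3f1 in 1 of 4 libraries. The median over the list was 0.610 TPM.

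Positions relative to Pou3f1 depended on the length scale for genes with long introns. In the deposited TPM, Lhx2 (54.2), Mef2c (21.7), Cux1 (13.7), Cux2 (9.42), Myt1l (9.29), Unc5d (2.45), Dab1 (2.04), Pou6f1 (39.4) and the neighbours Sf3a3 (90.2) and Utp11 (64.4) were all lower than Pou3f1 (109), although each was called above it by exon length.

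**Figure D5:**
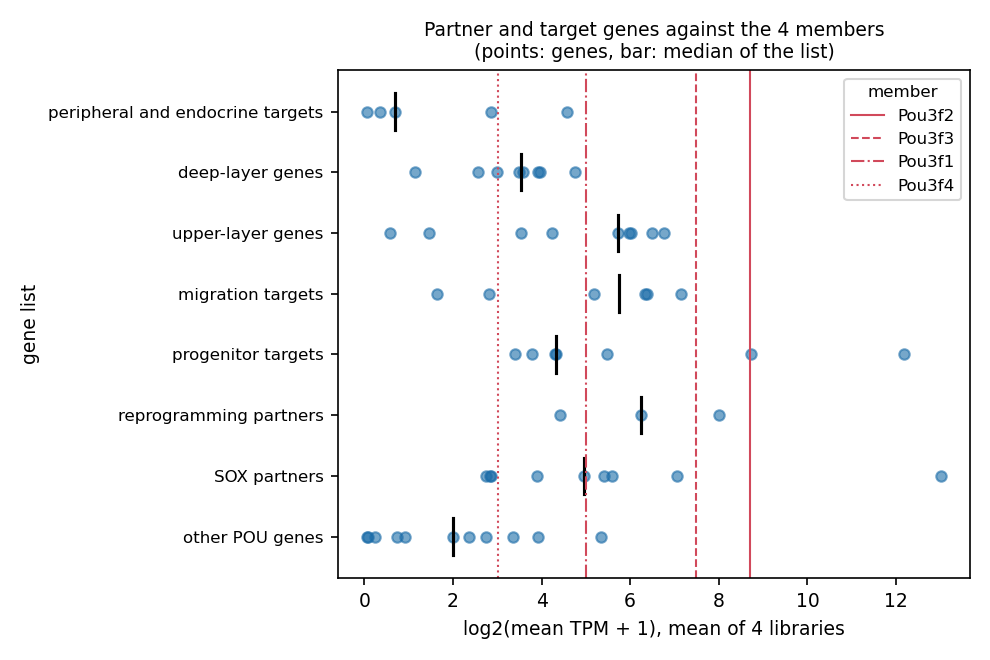
Levels of partner and target genes by list (points, genes, as log2 of the mean TPM of 4 libraries plus 1; bars, list medians), with vertical lines for the 4 members. Sox11, Fabp7 and Btg2 are the 3 points at or beyond the Pou3f2 line, and most listed genes lie between the lines of Pou3f4 and Pou3f3 or lower.

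The protein-coding genes nearest to each member in level were found by the root mean square difference in log2(TPM + 1) over the 4 libraries. For Pou3f2 they were Matr3 (0.054), Cwc15 (0.057) and Nfib (0.079), with Nfib, a nuclear factor I gene of the developing cortex, at 437 ± 50.3 TPM. For Pou3f3 they were Srsf5 (0.049), Ttc1 (0.053) and Mcts1 (0.055). For Pou3f1 they were Nucb2 (0.026), Orc2 (0.047) and Lrrc59 (0.057), and for Pou3f4 Hspa1b (0.032), Scn8a (0.038) and Osbpl11 (0.049). The Hspa1b value is uncertain, since its near-identical copy Hspa1a can share its reads. This measure compares level and library pattern at once and says nothing of shared control.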

How the data were processed

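Total RNA was reverse transcribed with poly-dT priming and template switching, and the cDNA was amplified and sheared, per the labels' protocols. Per the submitters' processing notes, bcl2fastq 2.19.1 and STAR 2.5.2b were used with GRCm38. How reads were counted, with which annotation and with what strand setting was not given in the sources used here. Whole-number read counts per gene (45706 genes, not normalised) were deposited by the authors, with a TPM table (15648 genes), whose values follow counts divided by gene span. TPM was recomputed from the deposited counts and merged exon lengths of GENCODE M21, in which 45143 identifiers matched, and the other 563 held 0.120% to 0.125% of counts.

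In R 4.3.3, genes with at least 10 counts in total were tested against 1 TPM with a quasi-likelihood F test (edgeR 4.0.16), and against each of Pou3f1, Pou3f2 and Pou3f3 within libraries with limma 3.58.1 on log2(TPM + 1), a pseudocount of 1. Differences of log2(TPM + 1) understate the fold change of low genes. Excess spread between libraries was tested in edgeR over genes of 40 or more counts. Tests were two-sided except that of spread, which was one-sided, and used Benjamini-Hochberg adjustment over all genes tested with a threshold of 0.05. The tests were tested on simulated data, where the share of unchanged genes called against a reference member varied widely between draws, so counts of genes above or below a member carry an error that their p-values do not show. Alternatives covered normalisation (TMM, and size factors of DESeq2 1.42.0), filters, pseudocount, length, variance model and each library left out.

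The members and gene lists were chosen with earlier results of these data known. Genes were named by rule: the 4 members, all genes of lists of up to 6 and the 3 highest of longer lists plus exceptions, neighbours within 100 kb with at least 10 counts, the 3 genes nearest in level, and the highest markers. Cux1, Cux2 and the lowest POU genes were named after their values were seen. Some genes that this rule takes are not reported here by name, though they stay in the counts and medians.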

Additional observations from a re-analysis of the deposited data

Results flagged for a closer look

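In 4 of 88 genes checked (4.55%), 1 library stood apart from the other 3 of the group by Dixon's test, in which the gap to the nearest library, divided by the whole range, exceeded the 95% critical value. Chance alone would give about 1 in 20. For Sox11, a partner of the class III factors, replicate 4 stood high (7622, 7628, 7507 and 10373 TPM, a gap of 0.958 of the range), and Pou3f2 and Pou3f3 were also highest in that library. For Btg2 replicate 1 stood low (392, 434, 433 and 439 TPM, 0.873). For the POU gene Pou2f2 replicate 3 stood high (2.64, 2.51, 4.14 and 2.72 TPM, 0.869). For Egr2 replicate 2 stood high (22.0, 27.5, 21.0 and 21.3 TPM, 0.843). None of the 4 class III genes was among them.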

How the results depend on the processing

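The order Pou3f2, Pou3f3, Pou3f1, Pou3f4 and the calls of all 4 above 1 TPM and of the 6 differences between them held under every alternative run, those chosen after seeing the data (RefSeq lengths, limma without moderation, protein-coding genes with Pantr1 only) included. The log2 difference of Pou3f2 and Pou3f3 ran from 0.32 to 1.246 (highest limma adjusted p = 0.00432), that of Pou3f3 and Pantr1 from -3.38 to -1.55. Counts of genes moved more. Genes below 1 TPM numbered 2532, but 6564 without the filter, 4665 by deposited TPM, 4929 by CPM and 1525 to 1707 with each library left out. The deposited table holds fewer genes, so its counts change with the gene set as well as the length. Genes above Pou3f1 fell from 3747 to 1016 by deposited TPM. Those above Pou3f2 fell from 313 to 68 (deposited TPM) and 114 (CPM), and those above Pou3f3 from 827 to 186 (deposited TPM), 294 (CPM) and 478 (RefSeq lengths). No gene was called more variable under any alternative run, with 734 to 808 genes at an unadjusted p under 0.05. No paired analysis was possible because the labels give a single group, with no second group to share its replicate numbers. Depth limits Pou3f4, where counting error alone gives a coefficient of variation of 7.11%.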
